A study of Mus musculus with 8 samples.

Results

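H4K20me3 peaks of wild-type (WT) mouse embryonic fibroblasts (MEF) that overlapped no WT H3K9me3 peak, and that had an H4K20me3 peak at the same place in KAP1 knockout (KO) cells, are described here as kept H4K20me3-only peaks. They were chosen on chromosomes 1 to 19 as WT H4K20me3 peaks with no base in a WT H3K9me3 peak and at least 1 bp in a KO H4K20me3 peak. There were 7190 of them, among 11104 WT H4K20me3 peaks on these chromosomes and 11295 in all. The choice therefore rests on the H4K20me3 peaks of both genotypes and on the WT H3K9me3 peaks, and values from these lists are given as descriptions. The 2724 H4K20me3-only peaks that had no KO peak are called lost, and 1190 peaks lay on H3K9me3. Over all 11104 peaks, 65.6% had a KO peak, a share that the choice of peaks used.

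The series is chromatin immunoprecipitation sequencing (ChIP-seq) of embryonic fibroblasts, which are connective tissue cells. KAP1 was profiled in WT cells and each histone mark in WT and in KAP1 KO cells, with 1 library for each of these 5 groups and no treatment named in the labels. The 3 input libraries were not analysed here. The sources used here do not give how the knockout was made, the age of the embryos, or whether the cells were a line, a clone or a pool, and no library measured KAP1 in KO cells. With 1 library per group there is no replicate error and no test between genotypes. Intervals below are 95% intervals over peaks, exact Clopper-Pearson for shares and from order statistics for medians. They cover the spread over peaks alone, and peaks of 1 library are not replicates of a condition. The files hold no read counts, so the depth is unknown, and a missing peak means that none was called.

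H4K20me3 is a histone mark best known from constitutive heterochromatin. In the textbook pathway, KAP1 (TRIM28) is brought to DNA by KRAB zinc finger proteins and recruits SETDB1, which trimethylates H3K9. HP1 proteins bind H3K9me3 and recruit the SUV420H enzymes, which trimethylate H4K20. Peaks of H4K20me3 with no H3K9me3 peak beneath them are therefore the sites at which the second mark was called without the first.

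The kept H4K20me3-only peaks made up most of the H4K20me3 landscape. They covered 6.67 of the 9.67 Mb under WT H4K20me3 peaks on chromosomes 1 to 19, or 68.9%. From the KO side, 7195 of 8673 H4K20me3 peaks on these chromosomes touched one of them (83.0%). They also scored higher than the other H4K20me3-only peaks. Their deposited score, the peak caller's own value for each peak, had a median of 227, and that of the lost peaks a median of 81.1.

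Most kept peaks were narrow. Their WT width had a median of 839 bp (interval 830 to 848 bp), with quartiles of 659 and 1092 bp and a range from 261 to 8925 bp. The widest 5% exceeded 1668 bp. The lost H4K20me3-only peaks had a median width of 568 bp, and peaks on H3K9me3 a median of 802 bp with an upper quartile of 1232 bp. Width and score went together with being kept. Among H4K20me3-only peaks, 29.7% of the narrowest decile (138 to 464 bp) had a KO peak, against 91.1% of the widest decile (1342 to 8925 bp). By score, 24.9% of the lowest decile and 99.0% of the top decile were kept. These shares describe the choice itself and carry no test.

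**Figure D1:**
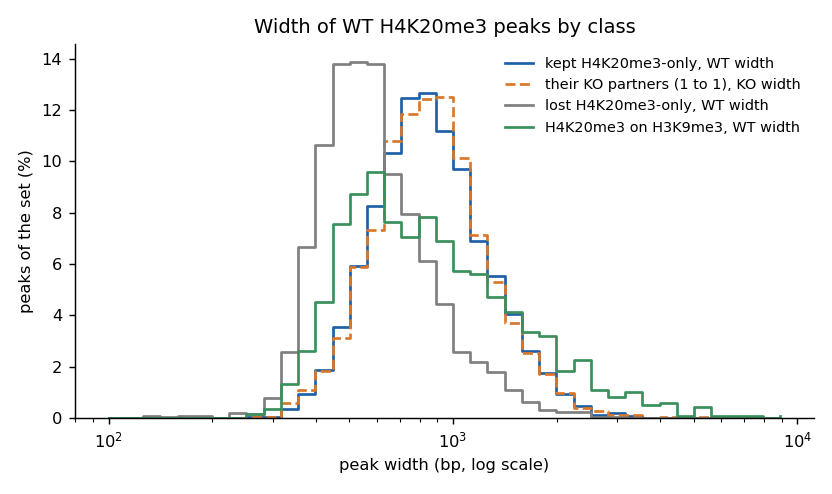
Share of peaks (y axis, %) by width in bp (x axis, log scale) for the kept H4K20me3-only peaks in WT, for their KO partners, for the lost H4K20me3-only peaks and for H4K20me3 peaks on H3K9me3. The WT and KO curves of the kept peaks nearly coincide (medians 839 and 850 bp), while the lost peaks are narrower (median 568 bp).

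Boundaries were compared for the pairs in which 1 WT peak met 1 KO peak and neither met another. This was the case for 6662 of the 7190 kept peaks (92.7%, interval 92.0 to 93.2%). Another 162 were split over several KO peaks, 341 shared a KO peak with a neighbouring WT peak, and 25 did both. In the 1 to 1 pairs the median width was 839 bp in WT and 850 bp in KO. The width ratio, KO over WT, had a median of 1.01 (interval 1.00 to 1.01) and quartiles of 0.868 and 1.17. The KO peak was the wider of the pair in 3402 cases and the narrower in 3244.

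Both edges lay close to the same position in both genotypes. The KO start minus the WT start had a median of -4.5 bp (quartiles -74 and 68 bp), and the KO end minus the WT end a median of 2 bp (quartiles -74 and 79 bp). Both quartile ranges are narrower than the sonicated fragments, for which the labels give 200 to 400 bp. Both edges lay within 100 bp of their WT position in 2600 pairs (39.0%), within 250 bp in 5412 (81.2%) and within 500 bp in 6397 (96.0%). Over all chromosomes together the shifts had no common direction, although they did on single chromosomes, as given below. KO peaks enclosed the WT peak in 28.0% of pairs, lay inside it in 25.1%, and were displaced to lower or higher positions in 24.2 and 22.7%. Of the bases covered by either peak of a pair, a median of 81.4% was covered by both.

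**Figure D2:**
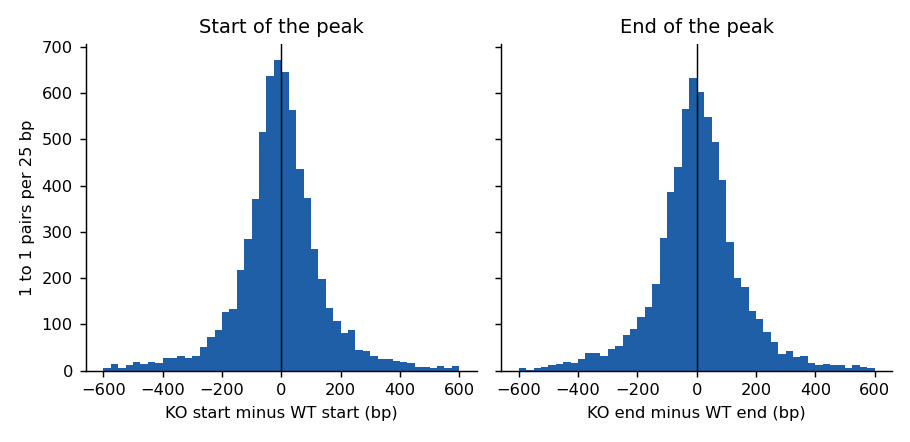
Number of 1 to 1 pairs (y axis) by the shift of the start (left) and the end (right) between KO and WT in bp (x axis, bins of 25 bp, from -600 to 600 bp) for kept H4K20me3-only peaks. Both distributions centre near 0, with medians of -4.5 and 2 bp.

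H4K20me3 peaks that lay on WT H3K9me3 and also had a KO peak give a set for comparison, although a small one. There were 89 of them, 74 in 1 to 1 pairs. Their median width was 1447 bp in WT and 689 bp in KO, with a median width ratio of 0.704. Their starts lay a median of 183 bp further in and their ends had a median shift of -118.5 bp, also inward. In 38 of the 74 pairs (51.4%, interval 39.4 to 63.1%) the KO peak lay inside the WT peak. Both edges were within 250 bp in 35.1% of these pairs (interval 24.4 to 47.1%), against 81.2% of the pairs of kept H4K20me3-only peaks (interval 80.3 to 82.2%). Both sets were chosen with the lists that give the edges, so this difference is a description.

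The size of edge shifts varied little with the score of a kept peak. Over 5 equal classes of the WT score, from 50.06 to 121.19 in the lowest to 426.61 and above in the highest, the median size of an edge shift was between 72 and 77 bp. The median width meanwhile went from 549 to 1330 bp in WT, so the share of bases in common went from 74.0 to 86.1%. In the lowest class the KO peak was wider in 67.1% of pairs, with a median ratio of 1.12. In the highest class it was wider in 43.1%, with a median ratio of 0.974. The classes were made on the WT score, and a peak was kept only where a KO peak was called. In the lowest score decile of H4K20me3-only peaks that was 24.9%. The ratios by class therefore depend on the choice and carry no test.

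The 5 kept peaks with the highest WT scores show the edge shifts at single sites. On chromosome 8 the WT peak ran from 125625897 to 125628072 and the KO peak from 125625791 to 125628224 (build mm9, as for all positions here), shifts of -106 and 152 bp. On chromosome 2 the peak from 32816964 to 32819043 had shifts of 50 and 235 bp, and on chromosome 3 the peak from 85945111 to 85946821 had shifts of -31 and -157 bp. The chromosome 15 peak (76734255 to 76736172) had shifts of 74 and 22 bp, and the chromosome 11 peak (6426025 to 6428992) had 269 and 41 bp. All 5 were between 1711 and 2968 bp wide in WT and 87.7 to 95.1% of the bases covered by either the WT or the KO peak were covered by both. The last of them lay 2559 bp from a WT H3K9me3 peak, and the other 4 lay 24376 bp or more away.

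The widest kept peaks included a pair of neighbours on chromosome 1. They ran from 90158183 to 90167107 (8925 bp) and from 90167827 to 90175423 (7597 bp), with 719 bp between them. In KO the first ran from 90159071 to 90167002 and the second from 90168986 to 90175073, so both starts had moved inward, by 888 and 1159 bp. Their WT scores were 144.6 and 323.46, beside a median of 227 over all kept peaks. The next widest, on chromosome 6 (42948767 to 42952811, 4045 bp), kept both edges within 190 bp. The one on chromosome 3 (58218713 to 58222464, 3752 bp) kept both within 147 bp. The other of the 5, on chromosome 17 (63228815 to 63232297, 3483 bp), was split into 2 KO peaks.

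The choice by a single base let in few marginal cases. At least 50% of the peak lay inside KO peaks for 7001 of the 7190 (97.4%), and 29 shared under 100 bp. The smallest overlaps were 2 bp on chromosome 3 (89223008 to 89223471) and 6 bp on chromosome 18 (36942832 to 36943336). Just outside the rule, lost peaks on chromosome 1 (137210463 to 137210764) and chromosome 4 (15941129 to 15941530) lay 5 bp from a KO peak, and 230 lost peaks lay within 1 kb of one. Toward H3K9me3, the nearest kept peaks lay 68 bp away on chromosome 7 (150853397 to 150854553) and 75 bp away on chromosome 4 (153348569 to 153349890). The peak left out by the fewest bases had 45 bp in H3K9me3, on chromosome 11 (3545133 to 3545753).

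Spacing had 2 scales. The gap from a kept peak to the next nearest kept peak had a median of 43368 bp, with quartiles of 12839 and 109923 bp. Below this broad distribution lay a separate group of close neighbours. Gaps under 100 bp were found for 363 peaks, gaps of 100 to 200 bp for 247 and gaps of 200 to 500 bp for 213. Gaps of 1 to 2 kb were rare (62 peaks, 0.862%), and the number was 728 between 10 and 20 kb and 1594 between 20 and 50 kb. Among lost H4K20me3-only peaks, measured to each other, 151 of 2724 (5.54%) had a gap of 1 to 2 kb, so the dip seen for kept peaks was not seen there. Close neighbours were not particular to kept peaks. A gap under 1 kb was found for 12.7% of kept peaks, 15.3% of lost peaks and 26.2% of peaks on H3K9me3, each within its set. Over all WT H4K20me3 peaks on these chromosomes the share was 20.3%. Gaps within a set also depend on its number of peaks.

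**Figure D3:**
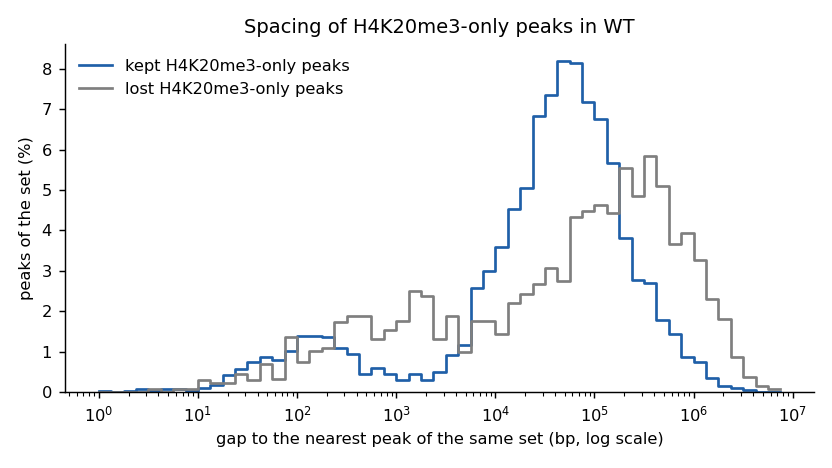
Share of peaks (y axis, %) by the gap in bp (x axis, log scale) to the nearest peak of the same set, for kept and lost H4K20me3-only peaks in WT. Kept peaks show a main group (median 43368 bp), a small group below 500 bp and few gaps of 1 to 2 kb.

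The close neighbours were mostly pairs. There were 465 gaps under 1 kb between neighbouring kept peaks, which involved 912 peaks (12.7%). The WT gap had a median of 130 bp and quartiles of 56 and 260 bp. In KO, 281 of the 465 pairs (60.4%, interval 55.8 to 64.9%) were again called as separate peaks, 183 were joined into 1 peak, and 1 had a further KO peak between its peaks. Joining went with a short gap. It was found for 66.7% of pairs with a WT gap under 100 bp, 30.2% at 100 to 200 bp, 17.3% at 200 to 500 bp and 8.70% at 500 bp to 1 kb.

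The gaps of the separate pairs were compared in both genotypes. Both peaks of such a pair had to meet a KO peak of their own, which leaves the KO gap little room to lie elsewhere, so these values are descriptions. In the 281 separate pairs the KO gap had a median of 207 bp and the WT gap a median of 188 bp. The gaps of both genotypes shared at least 1 base in 279 of these pairs. The midpoint of the gap differed by a median of 44 bp in size, and by at most 100 bp in 235 pairs (83.6%, interval 78.8 to 87.8%). Taken edge by edge, the edges next to the gap shifted by a median of 59 bp in size and the outer edges by a median of 93 bp. In the other direction, 160 kept peaks that were single in WT met exactly 2 KO peaks that no other WT peak touched. These were wide peaks (median 1381 bp) with a narrow KO gap (median 53 bp).

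Longer runs were few. With gaps under 5 kb chained, 6056 kept peaks stood alone, 519 chains held 2, 25 held 3, 4 held 4 and 1 held 5. The chain of 5 spanned 9428 bp on chromosome 6 from 58112562 to 58121989. Its KO counterpart was 3 peaks that ran from 58111982 to 58114657, from 58114717 to 58119284 and from 58119337 to 58122340, so both outer edges lay further out. A chain of 4 on chromosome 10 (117143759 to 117147910) met a single KO peak from 117143638 to 117148475. A chain of 4 on chromosome 5 (143576404 to 143583172) stayed divided, with 2 of its peaks in 1 to 1 pairs and 2 split.

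Kept H4K20me3-only peaks were found on every chromosome from 1 to 19, at a mean density of 2.98 per Mb. The density was highest on chromosomes 11 (5.96 per Mb, 708 peaks), 19 (4.98 per Mb) and 17 (4.31 per Mb). It was lowest on chromosomes 18 (1.70 per Mb, 149 peaks), 14 (1.88 per Mb) and 13 (1.92 per Mb). In the mouse, chromosomes 11 and 19 are known as gene-rich. Gene positions were not used here, since no annotation of build mm9 was analysed. Chromosomes with a higher density of WT H3K9me3 peaks also had more kept H4K20me3-only peaks (Pearson r = 0.66, Spearman rho = 0.74 over 19 chromosomes, r = 0.58 without chromosomes 17 and 18) and ones wider in WT (r = 0.80, rho = 0.79, r = 0.81 without these chromosomes). For the KO widths of their 1 to 1 partners the relation was weaker (r = 0.31, rho = 0.38, r = 0.50 without these chromosomes). The chromosomes share their cells, their sequence and both libraries, so these are descriptions with no test. On chromosome 18, with 1.66 WT H3K9me3 peaks per Mb, the median WT width of the kept peaks was 617 bp, the lowest of all 19. On chromosome 3, with 7.64 per Mb, it was 967 bp, the highest. These extremes were those of the WT libraries. In 1 to 1 pairs the median width on chromosome 18 was 630 bp in WT and 985 bp in KO. On chromosome 3 it was 952 bp in WT and 821.5 bp in KO. The copy number of the chromosomes was not measured, so these values cannot be read as traits of the chromosomes themselves.

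Within chromosomes the kept peaks were clustered. Of the 2426 windows of 1 Mb, 1638 held at least 1 of them (67.5%), and 334 windows (13.8%) held 50% of all. The count per window had a mean of 2.96 and a variance of 15.1. The windows with most kept peaks lay on chromosome 19 from 5 to 6 Mb (30 peaks) and on chromosome 10 from 79 to 80 Mb and from 80 to 81 Mb (29 each). These 3 windows held 11, 17 and 6 WT H3K9me3 peaks and no KO H3K9me3 peak. The mean count of kept peaks was 1.15 in windows without a WT H3K9me3 peak, 2.04 with 1 to 4, 3.37 with 5 to 9, 5.34 with 10 to 19 and 7.20 with 20 to 39. In the densest H3K9me3 windows the mean was no higher, at 5.27. The 11 windows with at least 40 WT H3K9me3 peaks held 1071 of those peaks and 58 kept H4K20me3-only peaks. The densest, on chromosome 4 from 146 to 147 Mb, held 280 H3K9me3 peaks and a single kept peak, and its neighbour from 145 to 146 Mb held 232 and 3. In the same order these windows held 10 and 28 WT H4K20me3 peaks in all. The choice leaves out H4K20me3 peaks on H3K9me3, so low counts in such windows follow in part from the choice. On chromosome 10 the window from 81 to 82 Mb, next to the windows with 29, held 141 H3K9me3 peaks and 11 kept peaks.

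Widths that were alike in both genotypes over all chromosomes together differed on single ones. On chromosome 18 the median width of 1 to 1 pairs was 630 bp in WT and 985 bp in KO, a median ratio of 1.49 (interval 1.35 to 1.64), with the KO peak wider in 92.5% of 133 pairs. On chromosome 14 the median ratio was 1.18 (interval 1.15 to 1.23), and 77.4% of 208 KO peaks were wider. The opposite held on chromosome 13 (0.842, interval 0.807 to 0.862), chromosome 16 (0.869, interval 0.839 to 0.902) and chromosome 3 (0.892, interval 0.868 to 0.913), where 28.3, 21.0 and 27.1% of the KO peaks were wider. Both edges moved by like amounts. The median shifts of start and end were -126 and 129 bp on chromosome 18 and 71.5 and -54 bp on chromosome 13.

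The other mark gave the chromosomes named above a like order. The number of KO H3K9me3 peaks over WT H3K9me3 peaks was 0.425 on chromosome 18, 0.296 on chromosome 14, 0.107 on chromosome 3, 0.0627 on chromosome 16 and 0.0366 on chromosome 13. Over the 19 chromosomes this ratio and the median width ratio of the kept H4K20me3-only peaks went together (Pearson r = 0.75, Spearman rho = 0.82, r = 0.75 without chromosomes 15 and 18). The order was not strict. Chromosomes 15 and 7 had H3K9me3 ratios of 0.409 and 0.388, above chromosome 14, but width ratios of 1.06 and 1.03. Chromosome 9 had an H3K9me3 ratio of 0.0990, below chromosome 3, but a width ratio of 1.00. The KO H3K9me3 peaks took no part in choosing the kept peaks, but the WT H3K9me3 peaks and both H4K20me3 lists did. This relation is therefore a description with no test. The share of H4K20me3-only peaks that were kept, which the choice fixes, stood at 90.3% for chromosome 18, at 58.2% for chromosome 16 and at 52.8% for chromosome 13. The copy number of the chromosomes in each genotype was not measured, since the inputs were not analysed here, so a difference in copy number and a difference in the mark cannot be told apart.

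**Figure D4:**
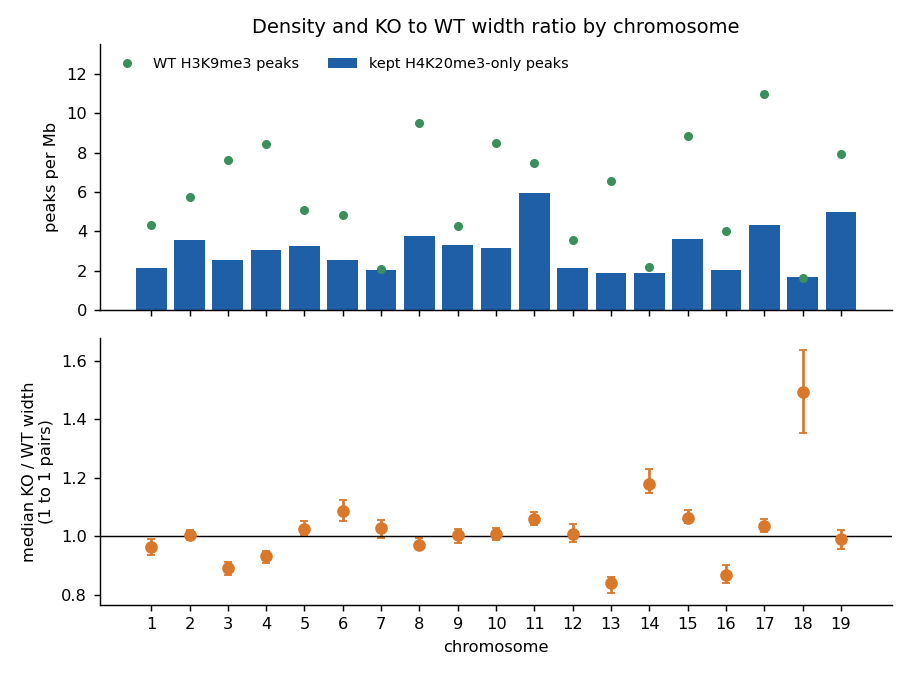
Above, kept H4K20me3-only peaks per Mb (bars) and WT H3K9me3 peaks per Mb (points) for chromosomes 1 to 19 (x axis). Below, median KO over WT width of 1 to 1 pairs with its 95% interval over pairs, where the line marks a ratio of 1. Chromosome 18 stands highest at 1.49 and chromosome 13 lowest at 0.842.

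KAP1 peaks were rarely found on kept H4K20me3-only peaks. The KAP1 list took no part in choosing the peaks. It held 361 peaks on chromosomes 1 to 19, and 8 of them touched 9 kept peaks. This is a share of 0.125% of the 7190 (interval 0.0573 to 0.237%), beside 0.594% over all 11104 WT H4K20me3 peaks. Here and within 10 kb below, the share over all peaks includes the peaks on H3K9me3, which the choice had left out. They gave 52 of the 66 H4K20me3 peaks that touched KAP1. The lost H4K20me3-only peaks had 5 of 2724 (0.184%, interval 0.0596 to 0.428%), so the intervals of the kept and lost peaks overlap. Of the peaks on H3K9me3, 52 of 1190 touched KAP1 (4.37%, interval 3.28 to 5.69%), whose interval lies above both. Counting only peaks that scored 100 or more, for all lists, the share among kept peaks was 0.0353%. A KAP1 peak within 10 kb was found for 55 kept peaks (0.765%), beside 1.59% over all H4K20me3 peaks, 1.10% of the lost and 7.73% of those on H3K9me3. The median distance to the nearest KAP1 peak was 1742747 bp for kept peaks, 2188550 bp for lost peaks and 1496240 bp for peaks on H3K9me3, a scale set by the short KAP1 list. Among peaks that scored 100 or more, these medians were 4150194, 4456079 and 2877567 bp.

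The KAP1 peaks on kept H4K20me3-only sites were mostly weak, and all but 1 had a score under 150. The median score of these 8 was 66.8, beside 96.6 over all 361. The strongest, with a KAP1 score of 793.01, lay on chromosome 17 from 12934369 to 12935618. The H4K20me3 peak there (12934168 to 12935128, WT score 220.35) lay 598 bp from a WT H3K9me3 peak, and its KO peak was 465 bp wide against 961 bp in WT. On chromosome 11 a KAP1 peak (69393572 to 69394084, score 149.15) covered the start of an H4K20me3 peak (69393785 to 69394983) whose KO peak was wider, at 1918 bp against 1199 bp. A second site on chromosome 17 had a KAP1 peak from 4626026 to 4626611 (score 143.49) inside an H4K20me3 peak from 4625998 to 4626776, and that peak had the highest WT H4K20me3 score of the 9, 1429.46. In KO it was 597 bp wide against 779 bp.

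A further KAP1 peak, on chromosome 10 from 126728225 to 126728647 (score 73.84), bridged a close pair of kept peaks (126727785 to 126728496 and 126728514 to 126728983). The pair was joined in KO into a peak from 126727711 to 126730467. The other 4 KAP1 peaks scored 52.16 to 59.71 and lay on kept peaks of chromosome 10 (62800842 to 62802248), chromosome 2 (121973450 to 121974356), chromosome 9 (103266279 to 103268078) and chromosome 13 (117812985 to 117814617). Among the 7 in 1 to 1 pairs, the KO width was 0.484 to 1.60 times the WT width. Of them 5 were narrower in KO, beside 48.7% of all 1 to 1 pairs of kept peaks. In 6 of these 7 the KAP1 peak's centre lay 345.5 to 604 bp from that of the H4K20me3 peak in either direction, and on chromosome 17 at 4625998 it lay 68.5 bp before it.

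**Figure D5:**
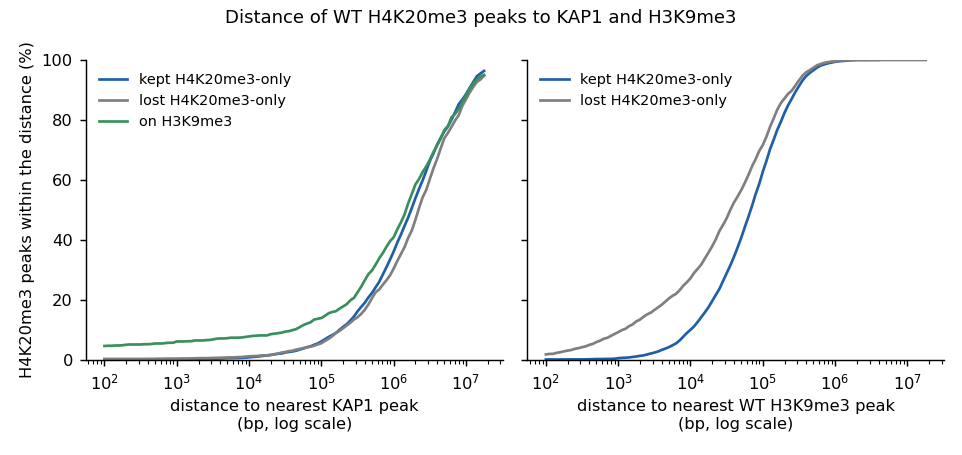
Share of WT H4K20me3 peaks (y axis, %) with a KAP1 peak (left) or a WT H3K9me3 peak (right) within a distance in bp (x axis, log scale), for kept and lost H4K20me3-only peaks and, on the left, peaks on H3K9me3. Toward KAP1, kept and lost peaks run close together up to 100 kb, and kept peaks stand higher at 1000 kb (36.1 against 30.4%). Fewer kept peaks lie near H3K9me3 (9.96% within 10 kb, against 27.1% of lost peaks).

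Kept and lost H4K20me3-only peaks differed in how near they lay to WT H3K9me3, although neither overlapped it. A WT H3K9me3 peak within 1 kb was found for 34 of 7190 kept peaks (0.473%, interval 0.328 to 0.660%) and for 249 of 2724 lost peaks (9.14%, interval 8.08 to 10.3%). Median distances were 68461 and 35641 bp, and 159636 and 123425 bp when only peaks that scored 100 or more were used. The difference was present at all levels of WT score. Below a score of 100, 0.378% of kept and 9.61% of lost peaks had H3K9me3 within 1 kb. From 100 to 200 the shares were 0.145 and 7.92%, and from 200 upward 0.664 and 9.68%. Within 10 kb, in the same order of classes, they were 8.80 and 26.2%, 9.92 and 27.2%, and 10.3 and 34.6%. Within 100 kb, 62.7% of kept and 71.6% of lost peaks had an H3K9me3 peak. The sets came together within 1000 kb, at 99.3 and 99.4%. Because the rule used the KO H4K20me3 list to part kept from lost, and the WT H3K9me3 list to bound both, no test was made.

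H3K9me3 was also almost never called on these sites in KO. The KO H3K9me3 list was short, with 2862 peaks on chromosomes 1 to 19 against 14185 in WT. Shares that touch it or lie near it depend on that number. Of the 7190 kept peaks, 1 touched a KO H3K9me3 peak (0.0139%, interval 0.000352 to 0.0775%), beside 0.811% over all WT H4K20me3 peaks. Among lost H4K20me3-only peaks 17 did (0.624%, interval 0.364 to 0.997%), and among peaks on WT H3K9me3 72 did (6.05%, interval 4.76 to 7.56%). The share over all peaks includes this last set, which the choice had left out. The 1 site lay on chromosome 8 from 40238168 to 40238786, with a WT H4K20me3 score of 50.42, close to the lowest of its list. Its KO H4K20me3 peak had a score of 110.4 and its KO H3K9me3 peak, from 40238175 to 40238805, a score of 210.52. A KO H3K9me3 peak within 10 kb was found for 14 kept peaks (0.195%), beside 1.49% over all and 1.73% of the lost peaks.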

How the data were processed

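Peak lists of 5 ChIP libraries were used, 1 per group. Reads were handled on build mm9 with Bowtie2 2.2.1, MACS 1.4 and CASAVA 1.82, per the submitters' processing notes. Calling parameters: not given in the sources used here. Each deposited score is the authors' own value per peak, lowest near 50. It is read here as a MACS score, which no label or header states, and it grows with depth and width. Scores rank or filter peaks within a list only. Positions are printed counting from 1.

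Overlaps, gaps and widths used pandas 2.3.3 and numpy 2.4.6 (Python 3.11.15), intervals with scipy 1.17.1 and figures with matplotlib 3.10.9. bedtools 2.31.1 returned the same 7190 peaks. The functions returned the known counts and shifts on simulated data. Gaps are measured between peak edges, and windows are assigned by peak centre. Density is per Mb between the outermost peaks of a chromosome over the 5 lists.

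The regions and lists were chosen with earlier results of these data known. Regions were named by rule: the 5 highest-scoring and 5 widest peaks, those with KAP1 or KO H3K9me3, the 3 fullest windows, the 3 longest chains and the smallest overlaps. The densest H3K9me3 windows, the close pairs and the values by chromosome were added after seeing the data. Reference tables of build GRCm38 were not used, so no gene or sequence is given. The 6 alternatives stand in the closing section.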

Additional observations from a re-analysis of the deposited data

How the results depend on the processing

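The alternatives were applied 1 at a time to 14 results. Of 83 values, 64 stayed within the interval of the reported value (for counts, within 1.5 times). Medians near no difference crossed it with equal numbers of peaks: the end shift was -2 bp, and the width ratio is given below. The number of kept H4K20me3-only peaks lay between 5659 and 7189. Requiring 50% of the peak in KO peaks, no H3K9me3 peak within 1 kb, or no KO H3K9me3 peak moved none of them.

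With equal numbers of highest-scoring H4K20me3 peaks, the median width was 877 bp, the 1 to 1 share 94.3%, the width ratio 0.999, the shared bases 82.0%, the median gap 49822.5 bp, the share with KO H3K9me3 0% and the median score 245. With peaks within 1 kb merged, the width was 893.5 bp, the 1 to 1 share 99.7%, the gap 54421 bp and the score 237. Counting only peaks that scored 100 or more, for all lists, the width was 917 bp, the 1 to 1 share 96.1%, the shared bases 83.2%, the gap 57825 bp, the share with KAP1 0.0353%, the distance to KAP1 4150194 bp, the distance to WT H3K9me3 159636 bp and the score 272. This last setting also shortens the KAP1 and H3K9me3 lists. Other causes were not tested.

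No paired analysis was possible because each group holds 1 library. Peak lists without read counts leave depth unknown, and edges of a single library per genotype have no replicate error.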
